A study of Mus musculus with 6 samples.

Results

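The genes described here encode the non-collagen core of the basement membrane, the thin sheet of matrix on which endothelial cells rest. They were listed by name, with earlier results of these data known. The list holds the laminin chains Lama2, Lama4, Lama5, Lamb1, Lamb2 and Lamc1, the nidogens Nid1 and Nid2, and the proteoglycans Hspg2 and Agrn. All 10 were found among the 22964 genes of the deposited table. Messenger RNA was measured in lymphatic endothelial cells of the meninges from untreated wild-type male C57BL/6J mice, in 3 young samples (2 to 3 months of age) and 3 old samples (20 to 24 months of age). Cells were sorted as negative for the leukocyte protein CD45 and positive for CD31 and podoplanin. Each sample gave 1 library. The labels do not say whether a sample was 1 mouse or a pool. A p-value here reflects how far these libraries scatter, which may be technical scatter alone if libraries of a group shared 1 pool.

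A laminin molecule is a trimer of an alpha, a beta and a gamma chain that self-assembles into a sheet at the cell surface. The alpha chain carries the sites for integrins and dystroglycan and differs most between tissues. Nidogens bridge the laminin sheet to the type IV collagen network, and perlecan and agrin, which carry heparan sulfate chains, tie both to growth factors and to the cell. Initial lymphatic vessels are known for a thin and incomplete basement membrane, whereas collecting lymphatics have a fuller one.

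The libraries held 14285794 to 21043945 estimated counts. Levels are given in CPM, the counts scaled to a common library size after correction by TMM factors. The lymphatic markers Prox1, Lyve1, Pdpn, Pecam1, Flt4, Ccl21a, Mmrn1, Reln, Cdh5 and Nrp2 were present in all 6 samples, with a summed level of 11456 to 14153 CPM in young and 17885 to 22127 CPM in old libraries. Fibroblast markers were present too, and all 10 that could be tested, of 11 listed, had a negative log2 fold change. Their sum was 5894 to 8917 CPM in young and 2882 to 3594 CPM in old libraries, and none of the 10 was at 0 in any library. Smooth muscle and pericyte markers summed to 650 to 1005 CPM in young libraries and to 2100.0, 983 and 1193 CPM in old libraries 1, 2 and 3. Blood endothelial markers summed to 670 to 816 CPM in young and 1319 to 1829 CPM in old libraries, and macrophage markers to 765 to 3439 CPM and 791 to 1757 CPM. Schwann cell markers summed to 145 to 193 CPM and 107 to 266 CPM. Markers of epithelium and choroid plexus summed to 35.8 to 306 CPM in young and 171 to 669 CPM in old libraries.

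For 8 of the 10 genes the young and old libraries overlapped, and no gene passed the test over all genes. Lama2 was 3.02-fold lower in old cells, with all 3 old libraries below all 3 young ones. Nid2 was 1.43-fold higher, with all 3 old libraries above all 3 young ones. After adjustment over all 15394 genes tested, edgeR called 0 of the 10 members, and 0.0% of all genes. DESeq2 also called 0 members, against 0.882% of all genes. At an unadjusted p under 0.05, edgeR counted 1 member lower (Lama2), against 2.7% of all genes, and 0 members higher, against 2.86%. Of the 10 members 1 had every old sample above every young one, against 5.56% of all genes, and 1 had every old sample below, against 6.44%. With 1 gene in each count, nothing is read from these shares. With library size as the only scaling, the genes at an unadjusted p under 0.05 split into 285 higher and 546 lower, against 441 and 415. The median log2 fold change was 0.10 over the members and 0.02 over all genes tested, with 7 members positive and 3 negative. The summed level of the 10 genes was 3458, 3356 and 3536 CPM in young libraries 1, 2 and 3 and 4169, 3672 and 3821 CPM in the old libraries.

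**Figure D1:**
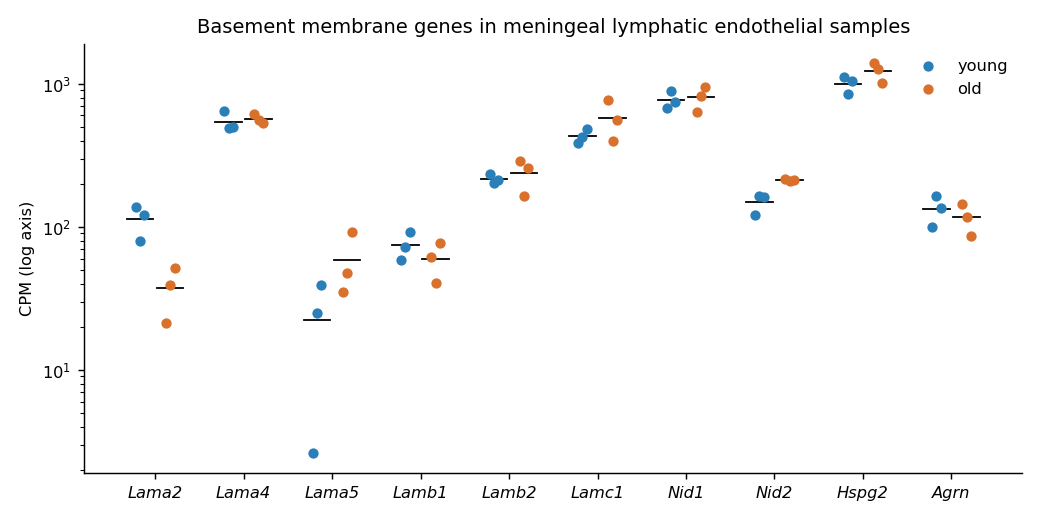
Level of each of the 10 genes in CPM (log axis) in the 3 young (blue) and 3 old (orange) samples, with a line at each group's mean. The groups separate for Lama2, lower in old libraries, and for Nid2, higher in old libraries, and overlap for the other 8 genes.

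Lama2 encodes the alpha2 chain, the alpha chain of muscle fibres and Schwann cells, which is also made by fibroblasts and pericytes. It lies on chromosome 10 from 26980036 to 27619758 on the minus strand (GRCm38, ENSMUSG00000019899). Its level was 137, 79.2 and 122 CPM in young libraries 1, 2 and 3 and 21.2, 39.1 and 51.9 CPM in old libraries 1, 2 and 3. Every old sample was below the lowest young one. The underlying estimates ran from 1559 to 2707 counts in young and from 283 to 1063 counts in old libraries. The counting error of such read numbers is small beside the spread between samples. RNA was linearly amplified, so these counts do not give the number of RNA molecules sampled, and that sampling error is not known. An antisense gene, Gm48084, shares 631 bases of exon with Lama2 and was not analysed here. The mean of Lama2 went from 113 ± 30.2 to 37.4 ± 15.4 CPM (SD, n = 3 per group), a log2 fold change of −1.59 (SE 0.46, 95% interval −2.64 to −0.55). The adjusted p over all genes was 0.752 in edgeR and 0.102 in DESeq2. Against 6.44% of all genes, 7 of the 10 tested fibroblast markers also had all old libraries below all young ones. Among these, Col1a1, a chain of type I collagen, had 1974, 1380 and 1241 CPM in young and 380, 573 and 682 CPM in old libraries. Pdgfra, Col6a2 and Dcn overlapped, and Dcn, the proteoglycan decorin, was at 767 CPM in old sample 1, above the young range of 625 to 698 CPM. Of the 8 Schwann cell markers 0 separated by age, where 5.56% of all genes had all old libraries above and 6.44% all below. With so few markers, nothing is read from that count. The Schwann cell markers went different ways in old sample 1, the sample with the lowest Lama2. There Sox10, a transcription factor of these cells, was at 0 and S100b was at 53.8 CPM, its highest value in the 6 libraries. Young sample 1, with the highest Lama2, had Sox10 at 0.186 CPM. The part of these other cell types in the Lama2 difference was not tested. In sorted bulk samples, fewer cells of a type and less RNA per cell cannot be told apart.

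RefSeq entries for the start-site region, 250 bases before to 50 bases after the start, were found for 7 of the 10 genes, with 8 entries. Those of Lama2, the member with the smallest p, and of Hspg2, the member with the highest mean CPM, are shown because they differ in base composition. Both are 5′ to 3′ on the gene's strand in GRCm38.p6, at chr10:27616893-27617192 (minus strand) and chr4:137468553-137468852 (plus strand). Capitals mark the GC box GGGCGG, searched on both strands with overlapping matches counted, a motif that 35.7% of the 32851 RefSeq regions of this length hold.
Lama2: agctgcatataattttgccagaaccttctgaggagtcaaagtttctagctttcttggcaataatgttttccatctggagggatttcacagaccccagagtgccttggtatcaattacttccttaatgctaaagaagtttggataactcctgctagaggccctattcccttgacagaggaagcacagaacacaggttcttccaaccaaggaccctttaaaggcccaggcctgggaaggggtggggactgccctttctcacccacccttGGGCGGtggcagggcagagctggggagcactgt
Hspg2: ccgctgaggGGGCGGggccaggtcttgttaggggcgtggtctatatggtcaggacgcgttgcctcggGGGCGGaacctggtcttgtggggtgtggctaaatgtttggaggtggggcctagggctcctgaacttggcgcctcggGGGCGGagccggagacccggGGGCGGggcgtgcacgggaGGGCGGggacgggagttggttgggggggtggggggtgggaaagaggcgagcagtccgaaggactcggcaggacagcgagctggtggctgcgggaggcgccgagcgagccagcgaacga
The Lama2 region lies inside the annotated gene, whose 5′ end on the minus strand is at 27619758. The Hspg2 region spans the annotated gene start at 137468769, so the 2 starts may not be alike. The Lama2 region holds 1 CpG and 1 match to the GC box. The Hspg2 region holds 27 CpG and 5 matches, where the median over all regions is 7 CpG. The other entries hold 24 CpG for Lama5, 20 for Nid1, 18 for Lamb1, 4 for Lamb2, and 42 and 11 for the 2 starts of Agrn. Of the other motifs searched on both strands, the CCAAT box (CCAAT, in 37.4% of all regions) had 1 match in Lamb1 and 1 in Nid1. The E-box (CANNTG, in 72.3%) had 2 matches each in Lama5 and Lamb1 and 1 each in Lama2, Lamb2 and 1 start of Agrn. The TATA box (TATAAA, in 13.6%) and the AP-1 site (TGANTCA, in 7.81%) had 0 matches in the 8 entries. These are descriptions of the sequence, and no binding or methylation was measured.

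Lama4 encodes the alpha4 chain, the general alpha chain of endothelium, and was the most abundant alpha chain in every sample. It lies on chromosome 10 from 38965515 to 39110188 on the plus strand (ENSMUSG00000019846). Its level was 642, 493 and 495 CPM in the young libraries and 616, 562 and 533 CPM in the old libraries. The groups overlapped, and the old libraries lay within the range of the young ones. The log2 fold change was 0.07 (SE 0.20), with a 95% interval of −0.38 to 0.52 that does not reach the size estimated for Lama2, and it ran from 0.0049 without young sample 2 to 0.21 without young sample 1.

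Lama5 encodes the alpha5 chain, the other endothelial alpha chain, known as a strong ligand for integrins. It lies on chromosome 2 from 180176373 to 180225859 on the minus strand (ENSMUSG00000015647). Its level was 2.61, 25.0 and 38.9 CPM in the young libraries and 34.9, 47.7 and 92.2 CPM in the old libraries. Young sample 1 stood apart with 42 counts, against 493 and 864 in the other young libraries, and young sample 3 was above old sample 1. The log2 fold change was 1.39 with a wide 95% interval of −0.61 to 3.40 (edgeR adjusted p = 0.913), and it was 0.87 without young sample 1. An increase, no difference or a decrease in alpha5 could not be told apart at this spread.

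Set beside each other within each sample, the alpha2 chain was scarcer relative to alpha4 in every old sample. The log2 ratio of Lama2 to Lama4 counts was −2.22, −2.64 and −2.02 in young libraries and −4.86, −3.85 and −3.36 in old libraries, a difference of −1.73 between the means. This was 1 of 5 pairs compared, and the exact two-sided permutation test gave p = 0.1, the smallest that 3 samples against 3 can give, and 0.25 after Benjamini-Hochberg adjustment. The ratio of Lama5 to Lama4 was −7.94, −4.30 and −3.67 in young and −4.14, −3.56 and −2.53 in old libraries. Those groups overlapped (exact permutation p = 0.2), and the difference of 1.89 between the means was 0.57 without young sample 1.

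Divided by the annotated exon length of each gene, the alpha chains can be compared with each other as shares of the summed CPM per kb of Lama1 to Lama5. Lama4 made up 82.7%, 82.7% and 74.5% of this sum in the young libraries and 90.9%, 84.8% and 73.9% in the old libraries. Lama2 made up 13.1%, 9.81% and 13.5% in the young libraries and 2.31%, 4.35% and 5.31% in the old libraries. Lama5 made up 0.356%, 4.45% and 6.20% in the young and 5.47%, 7.62% and 13.5% in the old libraries. Alpha4 was thus the leading chain in all 6 samples, alpha2 ranked next in all 3 young libraries, and alpha2 was below alpha5 in all 3 old libraries. Lama3, the alpha chain of epithelial laminin, had mean shares of 4.20% and 3.85%, and Lama1, the alpha chain of embryonic basement membranes, reached at most 0.246%. The transcripts used for length matter here: with the longest transcript in place of all exons, the mean Lama5 share was 1.97% in young and 4.84% in old cells, against 3.67% and 8.87%.

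**Figure D2:**
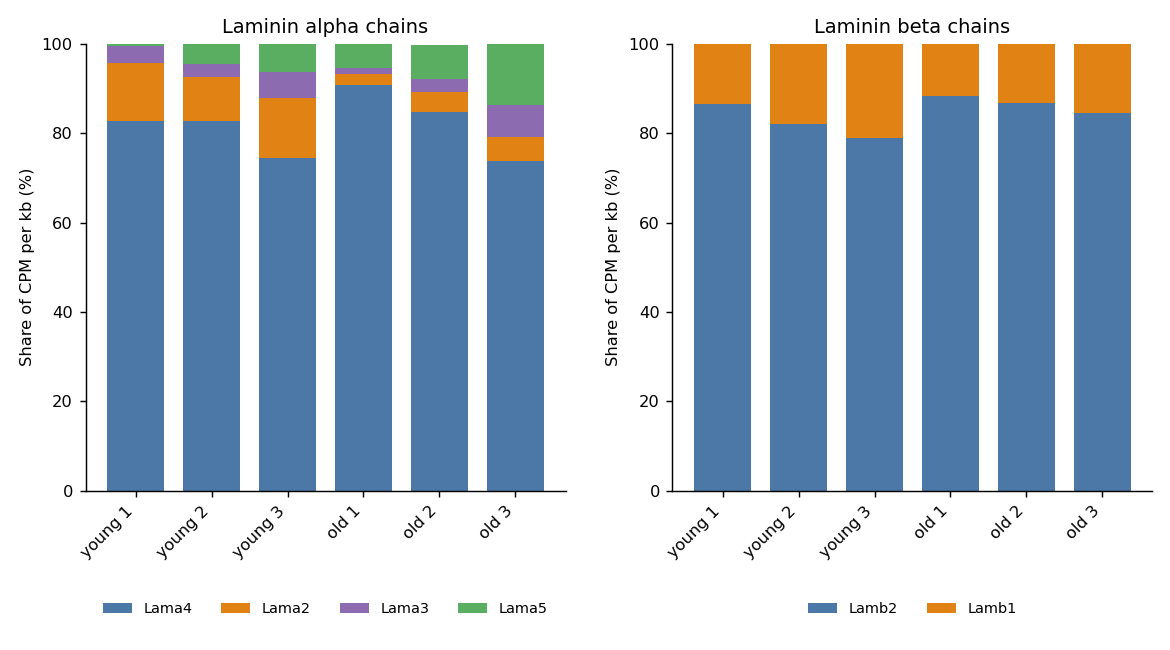
Shares of the laminin alpha chains (left, Lama1 not drawn) and beta chains (right, Lamb3 not drawn) in each sample, as percent of summed CPM per kb of exon. Lama4 takes 73.9% to 90.9% of the alpha sum in every sample, and the Lama2 share is 9.81% to 13.5% in young and 2.31% to 5.31% in old libraries.

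The beta and gamma chains, which every laminin trimer needs beside its alpha chain, gave no separation by age. Lamb1 encodes the beta1 chain and lies on chromosome 12 from 31265234 to 31329644 on the plus strand. It had 58.8, 71.9 and 91.9 CPM in young libraries and 61.7, 40.7 and 76.9 CPM in old libraries, a log2 fold change of −0.31 (SE 0.42) that was −0.13 without young sample 3, −0.10 without old sample 2 and −0.54 without old sample 3. Lamb2 encodes the beta2 chain, known from neuromuscular, glomerular and vessel wall laminins, and lies on chromosome 9 from 108479736 to 108490530 on the plus strand. It had 233, 202 and 212 CPM in young libraries and 287, 165 and 258 CPM in old libraries, a log2 fold change of 0.13 (SE 0.28) that ran from −0.03 without old sample 1 to 0.34 without old sample 2. The old libraries spread wider than the young ones, with a coefficient of variation of 27.1% against 7.28%. Per kb of exon, Lamb2 was the main beta chain in every sample, with 79.0% to 86.5% of the beta sum in young and 84.6% to 88.4% in old libraries. The log2 ratio of Lamb2 to Lamb1 was 1.99, 1.49 and 1.21 in young and 2.22, 2.02 and 1.75 in old libraries, and the groups overlapped (exact permutation p = 0.2, adjusted 0.25 over the 5 pairs). The difference of 0.43 between the means of this ratio was 0.26 without young sample 3.

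Lamc1 encodes gamma1, the chain that nidogens bind, and took 95.6% to 100% of the gamma sum per kb in every sample. It lies on chromosome 1 from 153218922 to 153332786 on the minus strand. Its level was 383, 421 and 485 CPM in young libraries and 768, 401 and 556 CPM in old libraries. Old samples 1 and 3 were above all young libraries and old sample 2 was below 2 of them. The log2 fold change was 0.42 (SE 0.27, 95% interval −0.18 to 1.02, edgeR adjusted p = 0.913). It was 0.15 without old sample 1 and 0.62 without old sample 2. Old sample 1 also had the highest summed smooth muscle and pericyte markers. Myh11 was at 668 CPM and Acta2 at 453 CPM there, against at most 67.8 and 98.1 CPM in the other samples. The 12 listed markers did not all go this way: Kcnj8 (56.8 CPM) and Cspg4 (0 CPM) were at their lowest there. The part of these cells in the Lamc1 level was not tested.

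Of the nidogens, Nid1 overlapped between the ages and Nid2 did not. Nid1 encodes nidogen-1, the main linker between laminin and type IV collagen, and lies on chromosome 13 from 13437551 to 13512269 on the plus strand. It had 672, 892 and 741 CPM in young libraries and 633, 823 and 950 CPM in old libraries, a log2 fold change of 0.06 (SE 0.21, 95% interval −0.43 to 0.55) that ran from −0.08 without old sample 3 to 0.21 without old sample 1. The lowest and the highest of the 6 values were both in old libraries. The antisense gene Gm48682, not analysed here, shares 143 bases of its exons. Nid2 encodes nidogen-2, a related linker known from vessel walls, and lies on chromosome 14 from 19751265 to 19811787 on the plus strand. It had 121, 163 and 161 CPM in young libraries and 216, 208 and 212 CPM in old libraries. The old libraries agreed closely, with a coefficient of variation of 1.90%, and each was above the highest young one. The log2 fold change was 0.52 (SE 0.26, 95% interval −0.07 to 1.11, edgeR adjusted p = 0.891), so the difference did not pass the test, and it was 0.39 without young sample 1. The 10 lymphatic markers had a median log2 fold change of 0.60, and the 8 tested blood endothelial markers 1.13. Of the lymphatic markers 8 had all old libraries above all young ones, against 5.56% of all genes. The part of cell composition in the Nid2 difference was not tested.

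Within each sample, Nid2 was less abundant than Nid1, and the mean gap was smaller in old cells. The log2 ratio of Nid2 to Nid1 counts was −2.47, −2.45 and −2.21 in young libraries and −1.55, −1.98 and −2.16 in old libraries, a difference of 0.48 between the means that was 0.30 without old sample 1. The groups did not overlap, although young sample 3 and old sample 3 lay close together (exact permutation p = 0.1, adjusted 0.25 over the 5 pairs). Nid2 shares 437 bases of exon with Rtraf on the opposite strand, and whether reads were counted by strand is not stated. Rtraf had 40.9 to 53.7 CPM in young and 15.8 to 38.4 CPM in old libraries, so the groups separated in the direction opposite to Nid2. Among the young libraries, sample 2 had the highest value of both genes. The part of Rtraf reads in the Nid2 level was not tested.

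The proteoglycans Hspg2 and Agrn gave overlapping groups. Hspg2 encodes perlecan, a large heparan sulfate proteoglycan of vessel walls, and lies on chromosome 4 from 137468769 to 137570630 on the plus strand. It had the highest mean CPM of the 10 genes, with 1108, 843 and 1053 CPM in young and 1386, 1268 and 1006 CPM in old libraries. Old samples 1 and 2 were above all young libraries and old sample 3 was below 2 of them. The log2 fold change was 0.28 (SE 0.19, 95% interval −0.16 to 0.72, edgeR adjusted p = 0.922), and it was 0.17 without young sample 2 and 0.18 without old sample 1. Agrn encodes agrin, a heparan sulfate proteoglycan that binds dystroglycan and organises the nerve-muscle synapse, and lies on chromosome 4 from 156165290 to 156197488 on the minus strand. It had 100.2, 165 and 135 CPM in young libraries and 145, 118 and 85.9 CPM in old libraries, a log2 fold change of −0.20 (SE 0.34). It was close to 0 without young sample 2 (−0.0163) or old sample 3 (−0.0225), and −0.37 without young sample 1 or −0.39 without old sample 1. The log2 ratio of Agrn to Hspg2 went from −2.93 ± 0.56 to −3.41 ± 0.15 (SD, n = 3) with overlapping groups (exact permutation p = 0.3, also after adjustment over the 5 pairs). The difference between these means ran from −0.75 without young sample 1 to −0.20 without young sample 2.

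**Figure D3:**
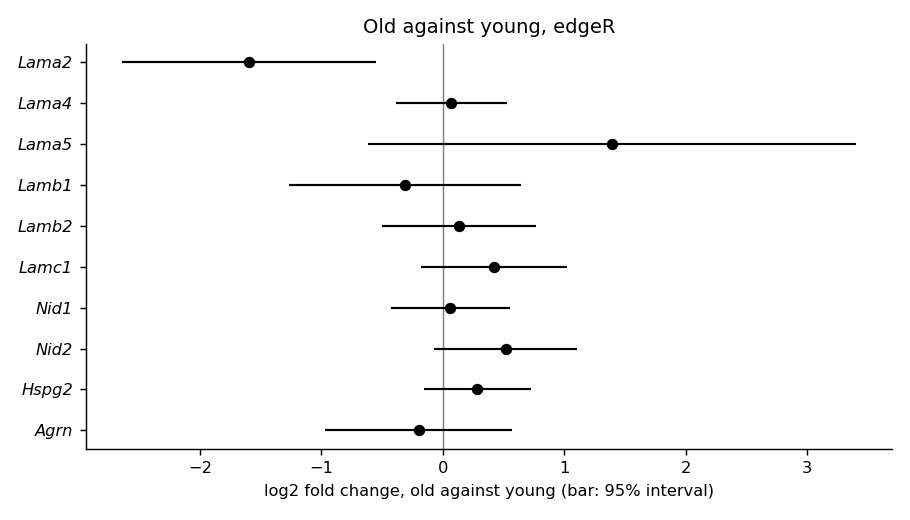
Log2 fold change of old against young for the 10 genes from the edgeR fit over all genes, with 95% intervals not adjusted for the number of genes. The interval of Lama2 lies below 0 (−2.64 to −0.55), that of Lama5 is the widest (−0.61 to 3.40), and every interval except that of Lama2 includes 0.

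Ordered by CPM per kb of exon, averaged over the 6 samples, the genes ran Nid1 (113), Hspg2 (77.6), Lamc1 (60.7), Lama4 (46.1), Lamb2 (37.2), Nid2 (34.8), Agrn (13.4), Lamb1 (6.75), Lama2 (4.60) and Lama5 (3.53). Nid1 was above Hspg2 in 5 of 6 samples, and Hspg2 was above Lamc1 in 6 of 6. The only neighbours in this order whose ranges over the samples did not overlap were Nid2 and Agrn, so the order splits into an upper 6 genes and a lower 4. Lama2 and Lama5, at the bottom, were each above the other in 3 of 6 samples. With the longest transcript as the length, Lama4 moved up to stand next to Nid1. Both lengths assume even coverage along the transcript.

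The members also varied unequally around their own means. As a measure of likeness, the root mean square difference between 2 genes' log2 CPM, each centred on its mean over the 6 samples, was smallest for Lama4 and Hspg2, at 0.167. It was 0.219 for Lamb2 and Lamc1. Lama2 differed from each of the other 9 genes by 0.851 or more, and Lama5 by 1.34 or more. The other 8 genes differed from each other by at most 0.531.

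Outside the members, the 5 genes most like Lama2 by this measure, of 3685 genes with a mean of at least 50 CPM, were Ptprs (0.241), Col1a1 (0.271), R3hdm2 (0.279), Dcaf7 (0.350) and Fbln1 (0.368). Ptprs encodes a receptor phosphatase that binds heparan sulfate, and Fbln1 encodes fibulin-1, a matrix protein that binds laminin and nidogen. Fbln1 had 402, 342 and 263 CPM in young libraries and 97.6, 147 and 191 CPM in old libraries. The 5 genes most like Nid2 were Tie1 (0.0874), an endothelial receptor, Plod1 (0.0889), a collagen lysyl hydroxylase, and Larp4 (0.0907), Arhgap12 (0.0979) and Gnb1 (0.103). Tie1 had 153, 210 and 200 CPM in young libraries and 300, 281 and 243 CPM in old libraries. With 6 samples, many genes lie at similar distances, so this likeness describes these libraries.

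**Figure D4:**
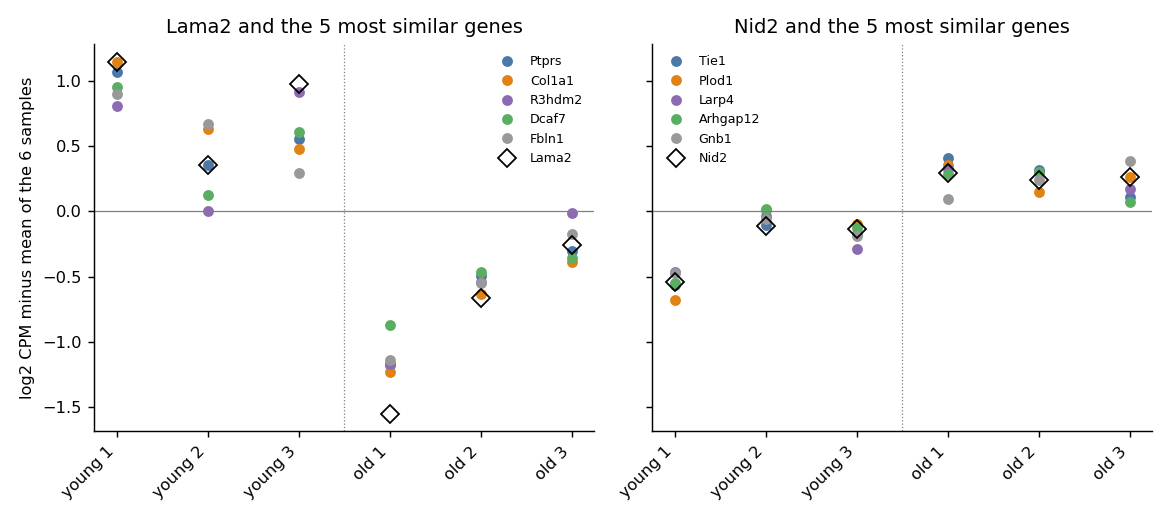
Log2 CPM minus the mean of the 6 samples for Lama2 (left) and Nid2 (right), drawn as open diamonds, with the 5 most similar genes as coloured dots. Every gene on the left is lower, and every gene on the right higher, in all 3 old libraries than in all 3 young ones. The similar genes were chosen for likeness over these same 6 samples, so the shared separation follows largely from the choice. Old sample 1 has the lowest Lama2.

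The genes that surround the core in a basement membrane were read from 8 lists with 97 genes, of which 91 were tested. EdgeR called 0 of them after adjustment, 4 were higher and 3 lower at an unadjusted p under 0.05, and 6 had all old libraries above and 6 all old libraries below the young ones. As shares of the 91 these are 4.4% higher and 3.3% lower, against 2.86% and 2.7% of all genes, and 6.59% above and 6.59% below, against 5.56% and 6.44%. The shares lie near those of all genes, so the counts are no result about these lists, and the genes named from them are given as values. The 4 higher genes were Timp3, Adamts1, Timp1 and Col4a3, and the 3 lower ones were Sparc, Fbln1 and Pomt2.

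The type IV collagens, which form the second network, and the basement membrane zone collagens had 4 of 8 tested genes positive and a median log2 fold change of −0.08, with 1 higher and 0 lower at an unadjusted p under 0.05. Col4a1, a chain of the main type IV collagen, had 310, 357 and 364.5 CPM in young and 241, 426 and 382 CPM in old libraries, so the groups overlapped. Col4a3, a chain of glomerular type IV collagen, reached 44.8 CPM in old sample 2 and stayed at 0.372 to 6.40 CPM in the remaining 5 libraries. Col18a1, whose product carries the endostatin fragment, had 111 ± 43.6 and 186 ± 126 CPM. Among other laminin chains, Lama3 had 25.5 ± 9.04 and 24.0 ± 20.0 CPM.

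Laminin receptors had 6 of 11 tested genes positive, a median of 0.20 and 0 genes at an unadjusted p under 0.05. Itgb1, the beta1 integrin subunit of most laminin receptors, had 368, 466 and 428 CPM in young and 553, 484 and 595 CPM in old libraries, and the groups did not overlap (log2 fold change 0.37, SE 0.20, edgeR adjusted p = 0.891). Itga6, the alpha6 integrin subunit, had 176 ± 39.6 and 106 ± 37.1 CPM, and Lrp4, the agrin receptor, had 76.4 ± 12.3 and 32.9 ± 28.4 CPM. Dag1 encodes dystroglycan, which binds the alpha2 chain, perlecan and agrin. It had 121, 161 and 143 CPM in young libraries and 48.6 and 96.9 CPM in old libraries 1 and 2, and it was listed at 0 in old sample 3.

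The enzymes that build the laminin-binding sugar on dystroglycan had 9 of 10 tested genes negative and a median log2 fold change of −0.66, against 0.02 over all genes, with 1 lower and 0 higher at an unadjusted p under 0.05. Pomt2, a subunit of the first mannosyltransferase of that sugar, had 42.1, 47.4 and 48.6 CPM in young and 2.02, 10.7 and 20.5 CPM in old libraries (log2 fold change −2.05, SE 0.84, edgeR adjusted p = 0.888). Heparan sulfate enzymes, which make the chains of perlecan and agrin, had 10 of 19 genes positive, a median of 0.00 and 0 genes at an unadjusted p under 0.05. Hs3st1, a 3-O-sulfotransferase, had 25.4 ± 13.3 and 58.2 ± 17.9 CPM with no overlap, and Extl3, a chain-starting enzyme, had 127 ± 45.9 and 89.9 ± 16.6 CPM.

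Among other basement membrane proteins, 7 of 16 tested genes were positive and the median was −0.06, with 0 higher and 2 lower at an unadjusted p under 0.05. These were Sparc, which binds type IV collagen, at 2548 ± 134 and 1206 ± 152 CPM, and Fbln1 (log2 fold change −1.21, SE 0.32, edgeR adjusted p = 0.693). Proteases and their inhibitors had 8 of 15 tested genes positive and a median of 0.08, with 3 higher and 0 lower. Timp3, a matrix-bound inhibitor of metalloproteinases, had 2046, 1908 and 1761 CPM in young and 3406, 2585 and 3774 CPM in old libraries (log2 fold change 0.77, SE 0.17, edgeR adjusted p = 0.687). Adamts1, a proteoglycan-cleaving protease, had 134 ± 13.0 and 243 ± 55.3 CPM without overlap. Genes for secretion of large matrix proteins had 9 of 10 tested genes negative and a median of −0.41, with 0 genes at an unadjusted p under 0.05. Mia3, the TANGO1 protein that loads large cargo for export, had 90.9, 134 and 96.5 CPM in young and 69.5, 63.1 and 63.0 CPM in old libraries. Sec23a, a coat subunit of the export vesicle, had 93.2 ± 12.3 and 52.9 ± 23.0 CPM.

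**Figure D5:**
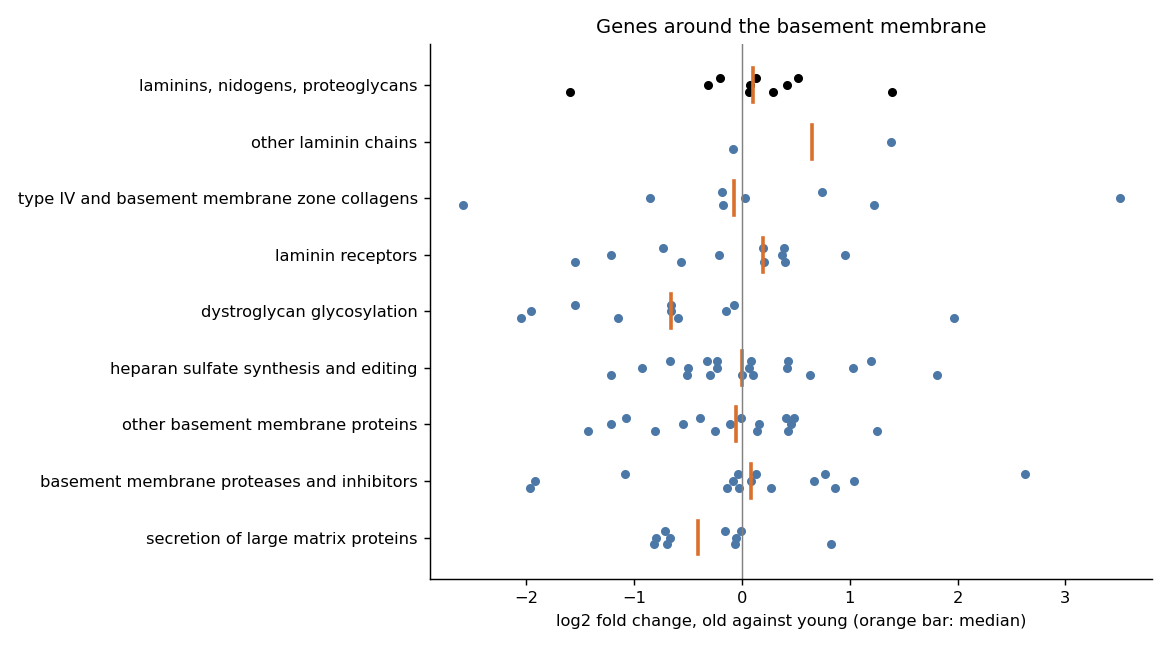
Log2 fold change of old against young for each tested gene (dots) of the members (black) and of 8 lists of surrounding genes (blue), with orange bars at the medians. The medians of the dystroglycan glycosylation list (−0.66) and the secretion list (−0.41) lie below 0, and that of the members is 0.10.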

How the data were processed

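The authors deposited estimated counts per gene as whole numbers. FastQC, Salmon and mm10 are listed in the submitters' processing notes. The annotation, the strand setting and how values were rounded are not stated there. RNA was linearly amplified before library preparation, per the labels' protocols. Of 22964 Ensembl identifiers, 22738 were matched to GENCODE M21 (GRCm38), which gave symbols, positions and exon lengths. Depth was 14285794 to 21043945 counts per sample, and no pair of samples agreed within sampling noise (smallest chi-square per degree of freedom 104).

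Groups were taken from the labels. The gene tests used edgeR 4.0.16 (R 4.3.3). After filterByExpr (minimum count 10, minimum total 15), 15394 genes remained. Age was the single term of a robust quasi-likelihood fit with TMM scaling, followed by a two-sided test with Benjamini-Hochberg adjustment over all genes at 0.05. Standard errors are the log2 fold change divided by the root of the F statistic. Log2 CPM used a prior count of 2. Ratios between 2 members were compared by an exact permutation test over samples. DESeq2 1.42.0, limma-voom (limma 3.58.1), other scalings, no filter, a replicate block and leaving out each sample were the alternatives.

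The members, lists and tests were chosen with earlier results of these data known. Every member is named. Of each list of surrounding genes, up to 2 genes with the smallest p and a mean of at least 5 CPM are named, except 1 gene that is not reported here. Itgb1, Dag1, Col4a1, Timp1 and the marker genes named with values were chosen after their values were seen. The 2 promoters shown, and the GC box as the motif marked in them, were chosen after the sequences and motif matches were seen.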

Additional observations from a re-analysis of the deposited data

How the results depend on the processing

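No member passed the adjusted threshold in any fit: edgeR with DESeq2 size factors, with library size only, with no filter, with the replicate block or without each sample, DESeq2, and limma-voom. Lama2 kept its direction in all of them, from −1.90 to −1.31 when a sample was left out, as did Nid2 (0.39 to 0.59). The 5 ratios were recomputed with each sample left out and kept their direction. With library size as the only scaling, the median log2 fold change over the tested genes shifted from 0.02 to −0.12 and the sign turned for Lama4 (−0.069), Lamb2 (−0.0102) and Nid1 (−0.0716). Leaving out a sample turned the sign of Lamb2 (−0.0295 without old sample 1; range −0.0295 to 0.335) and of Nid1 (−0.0271 without young sample 1 and −0.0787 without old sample 3; range −0.0787 to 0.206). The cause was not tested.

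Between 1 and 2 members were at an unadjusted p under 0.05 when a sample was left out, with Lamc1 added without old sample 2. Between 2 and 4 members had groups that did not overlap, where fewer samples make a gap easier. Over all genes edgeR called 0, DESeq2 130 and limma-voom 3. At an unadjusted p under 0.05, all genes split into 441 higher and 415 lower by edgeR, 285 and 546 with library size only, 749 and 794 with no filter and 707 and 667 by DESeq2, and leaving out a sample gave 322 to 537 and 275 to 754 (275 lower without young sample 2, 754 without old sample 2). All genes without overlap numbered 1848, and 3017 to 3856 with a sample left out. Of the 91 surrounding genes, DESeq2 and limma-voom each called 1, which was Sparc. At an unadjusted p under 0.05, DESeq2 counted 7 higher and limma-voom 2 higher and 9 lower, and library size only gave 5 lower. Leaving out a sample gave 2 to 5 higher, 2 to 7 lower and 17 to 25 without overlap. The mean Lama4 share in young cells was 84.8% by longest transcript, against 80.0%.

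Same-numbered young and old samples had correlations of 0.079, 0.053 and −0.012 between their deviations from the group means, so the numbers are not taken as pairs. With the replicate block, 2 members (Lama2 and Lama5) were at an unadjusted p under 0.05 and 2 surrounding genes were higher. The exact paired sign-flip test of the ratios cannot go below p = 0.25 with 3 pairs.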
